A study of Mus musculus with 19 samples.

Results

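Genes of the mast cell were followed through all 19 libraries of total RNA-seq from mouse mammary tissue. The set holds 6 genes of 24421 counted, which are Cpa3, Cma1, Mcpt4, Tpsb2, Ms4a2 and Hdc. They were chosen by name, after their fall between stages in mutant tissue and the difference of that fall from WT had been seen in these libraries, so that comparisons of WT and mutant tissue by stage are given for them as a description without a p-value. Mice were labelled C57BL/6, of the N substrain by the study's methods, and tissue was taken on pregnancy day 6 (p6) or pregnancy day 18 (p18). There were 3 WT libraries for each of the stages. Tissue homozygous for the deletion of the super-enhancer next to Odam in the casein locus (labelled Enhancer-delS1-4, here ΔSE) gave 4 libraries at each stage. Lines without a single enhancer gave 3 libraries for Csn1s2b (delCsn1s2b-E, here ΔCsn1s2bE) and 2 for Csn3 (delCsn3-PE, here ΔCsn3PE), with p18 as their stage label. The extraction note of these 5 libraries names WT tissue in lactation, so that their stage is uncertain, and they had no WT libraries of their own. The deletions are germline, so that every cell of the gland carries them, and whole tissue was sequenced.

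Mast cells are tissue-resident cells of the immune system that store proteases, histamine and heparin in granules and release them when antigen crosslinks IgE on their surface. Connective tissue mast cells of the mouse carry chymases, tryptases and carboxypeptidase A3, whereas mucosal mast cells carry Mcpt1 and Mcpt2. In the mammary gland mast cells lie in the stroma around ducts and vessels. Cpa3 encodes carboxypeptidase A3, Cma1 and Mcpt4 encode chymases, Tpsb2 encodes a tryptase, Hdc encodes histidine decarboxylase, which makes histamine, and Ms4a2 encodes the β chain of the high-affinity IgE receptor.

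The genes lie on 5 chromosomes in mm10 (GRCm38), all away from the casein locus on a different chromosome. Coordinates are those of the GENCODE annotation of that build. Cpa3 spans chr3:20215620-20242181 on the minus strand in 12 exon blocks, and Hdc spans chr2:126593667-126619299 on the minus strand, also in 12. Cma1 at chr14:55941451-55944675 and Mcpt4 at chr14:56059629-56062313 share the chymase cluster, both on the minus strand and 114953 bases apart. Tpsb2 lies on the plus strand at chr17:25366305-25369098, 20742 bases from the related gene Tpsab1. Ms4a2 lies on the minus strand at chr19:11615523-11623719. Reads can be told apart between these genes and their relatives in most positions. Of all 50-base windows in the transcripts, 5.48% of those in Mcpt4 also occur in Cma2 or Mcpt9 and 5.38% of those in Cma1 occur in Gm48934, whereas none of those in Cpa3 or Tpsb2 occur in another gene.

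The 250 bases before the start site of 4 members are shown because each window holds the core letters of a GATA motif, the binding motif of GATA2, a transcription factor of the mast cell lineage. The windows are chr3:20242182-20242431 for Cpa3, chr14:55944676-55944925 for Cma1, chr14:56062311-56062560 for Mcpt4 and chr19:11623720-11623969 for Ms4a2, all on the minus strand of GRCm38.p6 and written 5′ to 3′ from RefSeq. Capitals mark GATAA or its reverse complement TTATC, searched on both strands.
Cpa3: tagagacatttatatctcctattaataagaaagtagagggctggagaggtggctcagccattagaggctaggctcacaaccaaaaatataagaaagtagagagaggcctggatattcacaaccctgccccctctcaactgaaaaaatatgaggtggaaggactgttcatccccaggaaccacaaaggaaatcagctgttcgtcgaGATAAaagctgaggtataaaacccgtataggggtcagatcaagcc
Cma1: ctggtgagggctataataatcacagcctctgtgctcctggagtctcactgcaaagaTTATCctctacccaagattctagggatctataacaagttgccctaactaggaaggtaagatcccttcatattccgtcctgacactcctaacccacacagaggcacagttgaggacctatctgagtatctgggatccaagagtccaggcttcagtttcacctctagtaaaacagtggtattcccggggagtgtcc
Mcpt4: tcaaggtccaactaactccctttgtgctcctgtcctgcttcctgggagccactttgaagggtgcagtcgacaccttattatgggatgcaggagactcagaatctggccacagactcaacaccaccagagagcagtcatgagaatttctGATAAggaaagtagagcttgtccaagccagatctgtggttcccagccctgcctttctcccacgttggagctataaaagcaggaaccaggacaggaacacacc
Ms4a2: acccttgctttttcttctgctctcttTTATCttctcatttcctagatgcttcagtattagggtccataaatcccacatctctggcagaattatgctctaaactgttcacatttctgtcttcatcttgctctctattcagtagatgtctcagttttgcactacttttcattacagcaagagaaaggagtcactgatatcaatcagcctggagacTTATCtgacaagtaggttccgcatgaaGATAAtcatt

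The table of start sites held 5 of the 6 members, all but Tpsb2. GATAA was found in 4 of these 5 windows and in 22.6% of the 32851 windows of the same length in the table. It began 45 bases before the start in Cpa3, 102 in Mcpt4 and 194 in Cma1, and Ms4a2 held it 3 times, at 224, 37 and 10 bases before the start. The window of Hdc had no such letters. A second set of letters, CATGTG or its reverse complement CACATG, which is an E-box bound by MITF, was in none of the 5 windows and in 12.3% of all windows. A match describes the sequence and does not show binding.

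Reads in genes came to 12335272 to 20525175 per library in the WT and ΔSE set and to 26848053 to 30329601 in the single-enhancer lines. Between 21.7 and 42.9% of reads in the former fell on Rn45s, the precursor of ribosomal RNA, and 0.0765 to 0.924% in the latter. Csn3 checked the labels, at 5168 to 6707 normalized CPM in WT tissue at p18, 50.1 to 146 in ΔSE tissue at p18 and 276 to 1358 in ΔCsn3PE tissue. Csn1s2b was at 27.8 to 51.5 in ΔCsn1s2bE tissue and 42.7 to 217 in WT tissue at p18, which overlap. ΔCsn3PE tissue, of the same library set as ΔCsn1s2bE tissue, had 122 to 230, above all ΔCsn1s2bE libraries. Levels are normalized CPM, in which the reads of a gene are set against the reads of its library after TMM scaling of all 19 libraries together. In WT tissue at p6, replicate 1 stood apart from the other libraries of its group, with Csn1s1 at 43.7 normalized CPM against 1639 and 1681. In ΔSE tissue at p6 Csn1s1 was at 16.3 to 96.5, a range that holds WT replicate 1 and lies below the other WT libraries of p6. The part of this difference in the levels of the 6 genes was not tested. Transcripts of 8 skeletal muscle genes differed between and within groups, with sums of 1217 to 2311 normalized CPM in WT tissue at p6. The 4 ΔSE libraries of p6 had 50.6, 2638, 120 and 3698, and those of p18 had 5.52 to 14.7. In WT tissue at p18 replicates 2 and 3 had 1049 and 1552 against 3.65 in replicate 1. Values of the 6 genes are also given without WT replicate 1 at p6 and, for comparisons at p18, without WT replicates 2 and 3, and changes in the calls of other mast cell genes are given beside them.

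The genes of the set are themselves the mast cell markers used here, so that their own reads cannot test the label. Reads of Cpa3, Cma1, Mcpt4, Tpsb2 and Hdc were present in each of the 19 libraries, between 40 and 609 reads for Cpa3 and between 6 and 51 for Hdc. Ms4a2 was the scarcest, with 178 reads over all libraries and none in 1 of them, where up to 3 counts, or 0.204 normalized CPM, could have been missed by counting error alone. Mcpt1 and Mcpt2, the proteases of mucosal mast cells, had 0 reads in all 19 libraries, which allows up to 0.0805 to 0.281 normalized CPM per library. Basophils also make histamine and carry the IgE receptor. Their protease genes Mcpt8 and Prss34 had 2 and 30 reads over all libraries. The other genes of the basophil list were Cd200r3, with 87 reads and none in 2 libraries, and the IL-3 receptor gene Il3ra, with 632 reads and some in every library. The list summed to 1.82 to 4.29 normalized CPM in WT tissue at p6, 2.82 to 3.18 in WT tissue at p18, 2.93 to 5.22 in ΔSE tissue of the earlier stage and 1.27 to 3.83 of the later, and its part in the levels of Ms4a2 and Hdc was not tested.

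Among members, levels can be compared per kilobase of exon. In WT tissue at p18 Cpa3 was at 4.93 ± 1.09 normalized CPM per kilobase (SD, n = 3), Mcpt4 at 4.46 ± 0.338, Cma1 at 4.03 ± 0.862 and Tpsb2 at 2.71 ± 0.629. The amine and receptor genes were far lower, Hdc at 0.186 ± 0.0763 and Ms4a2 at 0.0923 ± 0.0545. The granule proteases therefore supplied most of the signal. Of the reads of the 6 genes, Cpa3 took 23.7 to 38% in each library, Mcpt4 14.8 to 33.3%, Cma1 15 to 30.2% and Tpsb2 8.89 to 23.3%. Hdc took 1.96 to 8.41% and Ms4a2 0 to 6.54%.

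**Figure D1:**
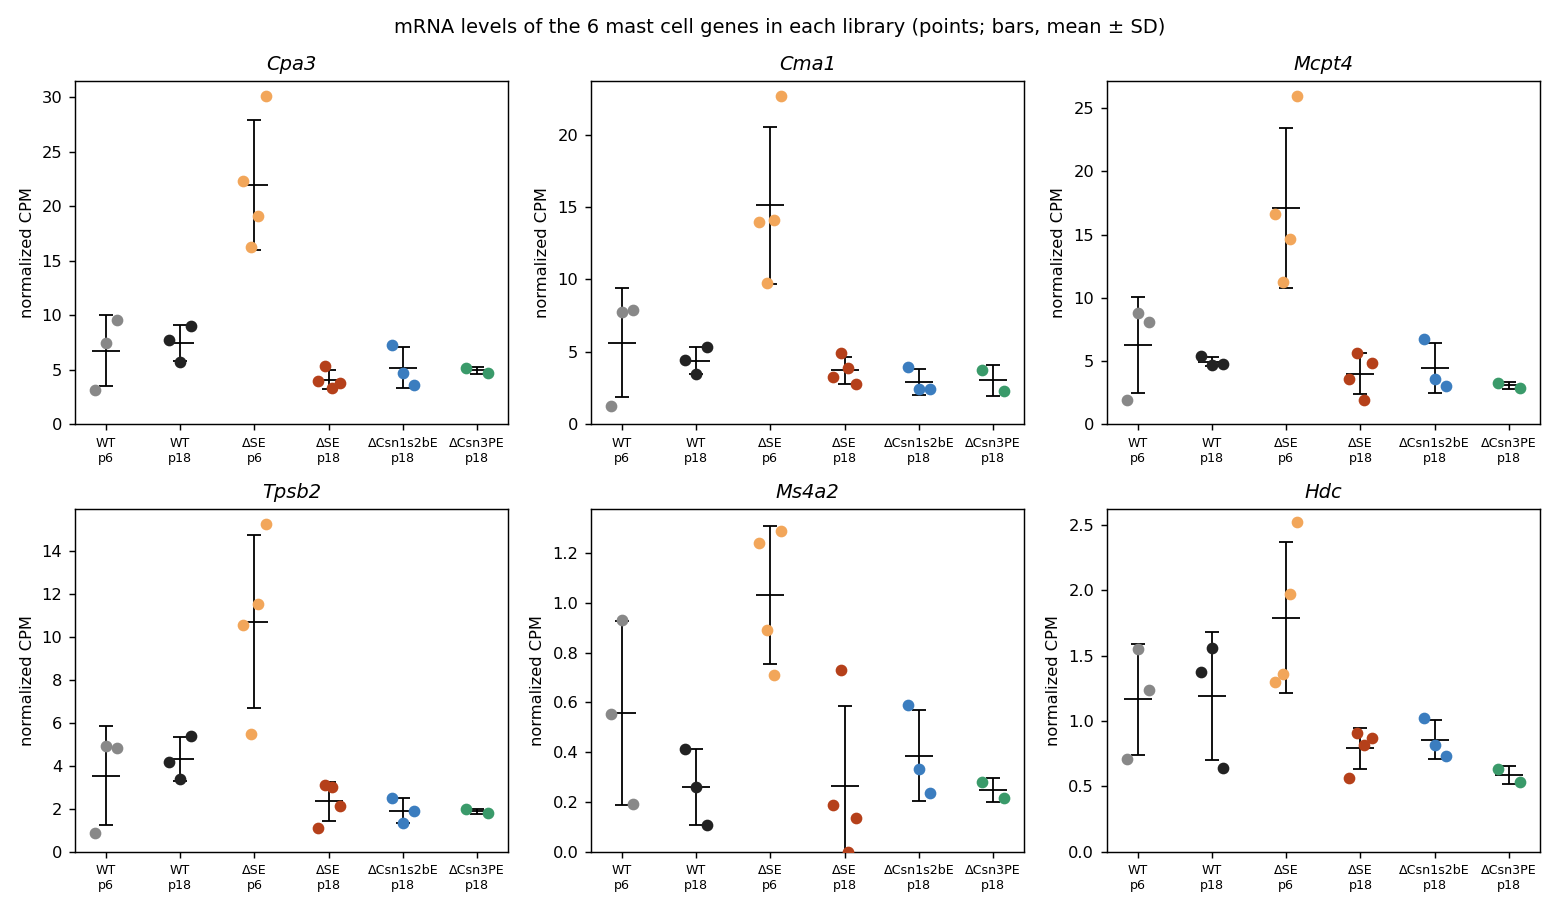
Level of each gene in normalized CPM (vertical axis, linear, from 0, own scale per panel) in the 6 groups (horizontal axis), with 1 point per library and bars for the mean ± SD (clipped at 0). For Cpa3, Cma1, Mcpt4 and Tpsb2 the 4 ΔSE libraries at p6 lie above all other libraries, and those of the remaining groups overlap for the most part.

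The proteases were highest in ΔSE tissue at p6. Cpa3 mRNA stood at 22.3, 16.2, 19.1 and 30.2 normalized CPM in the 4 ΔSE libraries at p6. WT libraries at p6 had 3.16, 7.45 and 9.55, those at p18 had 7.71, 5.71 and 8.99, and ΔSE libraries at p18 had 3.94, 5.29, 3.27 and 3.76. Every ΔSE library at p6 was thus above every other library, whereas WT libraries of the 2 stages overlapped and ΔSE libraries at p18 lay below those of WT at p18.

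Cma1 showed 13.98, 9.74, 14.1 and 22.6 normalized CPM in ΔSE tissue at p6 and 1.26, 7.76 and 7.88 in WT tissue at that stage. At p18 its level was 3.28, 4.93, 3.88 and 2.75 in ΔSE tissue and 4.41, 3.44 and 5.32 in WT tissue. The chymase gene was separated between genotypes at p6 and overlapped at p18. Mcpt4, the neighbouring chymase gene, had 16.6, 11.2, 14.6 and 25.9 normalized CPM in ΔSE tissue at p6 against 1.90, 8.79 and 8.07 in WT tissue. At p18 it had 3.57, 5.66, 1.91 and 4.83 in ΔSE tissue and 5.37, 4.67 and 4.79 in WT tissue. Its groups were likewise apart at p6 and overlapped at p18.

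Tpsb2 tryptase mRNA was at 10.5, 5.50, 11.5 and 15.3 normalized CPM in ΔSE tissue at p6 and at 0.869, 4.91 and 4.82 in WT tissue. At p18 it was at 1.13, 3.10, 3.00 and 2.15 in ΔSE tissue and at 4.20, 3.38 and 5.37 in WT tissue. Tpsb2 and Cpa3 were the members whose ΔSE libraries lay below all WT libraries at p18.

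For the scarce genes read counts are given. Ms4a2 had 22, 17, 9 and 26 reads in ΔSE tissue at p6, 7, 18 and 4 in WT tissue at p6, 6, 4 and 2 in WT tissue at p18 and 2, 8, 0 and 2 in ΔSE tissue at p18. Hdc had 23, 26, 25 and 51 reads in ΔSE tissue at p6, 9, 30 and 26 in WT tissue at p6, 20, 24 and 12 in WT tissue at p18 and 6, 10, 12 and 13 in ΔSE tissue at p18. As levels, both genes overlapped between genotypes at either stage, and the Hdc libraries of ΔSE tissue at p18 were all below those at p6.

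At p6 all 6 genes had a higher fitted level in ΔSE than in WT tissue, with a median log2 fold change of 1.42 against 0.01 over all 17844 genes tested. Cpa3 differed by 1.70 (standard error 0.30), Tpsb2 by 1.57 (0.45), Mcpt4 by 1.44 (0.41) and Cma1 by 1.41 (0.42). Ms4a2 differed by 0.91 (0.69) and Hdc by 0.61 (0.39). Of the 6 genes 1, Cpa3, was called at an adjusted p under 0.05, a threshold that 1.03% of all genes passed at this stage, 0.499% as higher and 0.527% as lower. Since the members were chosen with these contrasts in view, nothing is read from the count. ΔSE libraries were above all WT libraries for 4 of the 6 genes and for 5.99% of all genes, and lay below them for none of the 6 and for 5.41% of all genes. In bulk tissue, a larger number of mast cells and more of these RNAs per mast cell cannot be told apart.

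WT replicate 1 at p6 had the lowest level of each of the 4 protease genes in its group. Without it the differences of ΔSE from WT tissue at p6 were 1.38 for Cpa3, 1.15 for Tpsb2, 1.04 for Mcpt4, 0.97 for Cma1, 0.91 for Ms4a2 and 0.37 for Hdc on the log2 scale, and Cpa3 was no longer called. Without that library the direction stayed the same for each gene and the size was smaller or equal. Cpa3 also lost its call without ΔSE replicate 3 (1.75) or replicate 4 (1.49) at p6.

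At p18 all 6 genes had a lower fitted level in ΔSE than in WT tissue, with a median log2 fold change of -0.43 against -0.04 over all genes. The differences were -0.88 (standard error 0.31) for Cpa3, -0.87 (0.47) for Tpsb2, -0.56 (0.42) for Hdc, -0.31 (0.43) for Mcpt4, -0.25 (0.44) for Cma1 and -0.03 (0.87) for Ms4a2. None of the 6 was called, where 0.314% of all genes were. The ΔSE libraries lay below all WT libraries for 2 of the 6 genes and for 10.1% of all genes. Without WT replicates 2 and 3 at p18 the 6 differences were all negative, from -0.94 for Cpa3 to -0.26 for Cma1, against the single remaining WT library.

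The effect of the deletion at p18 minus its effect at p6 was negative for each gene. It was -2.58 (standard error 0.43) for Cpa3, -2.44 (0.64) for Tpsb2, -1.75 (0.59) for Mcpt4, -1.65 (0.60) for Cma1, -1.16 (0.58) for Hdc and -0.95 (1.13) for Ms4a2 on the log2 scale, with a median of -1.70 against -0.06 over all genes. Of the 6 genes 1, Cpa3, was called, where 0.151% of all genes were called, 0.0616% as lower and 0.0897% as higher, and again nothing is read from this count. That call was lost when any of the 3 WT libraries at p18, ΔSE replicate 2, 3 or 4 at p6, or any of the 4 ΔSE libraries at p18 was left out, with values of -2.75 to -2.34. Leaving out WT replicate 1 at p6 gave -2.27 for Cpa3, -2.02 for Tpsb2, -1.35 for Mcpt4, -1.21 for Cma1, -0.94 for Ms4a2 and -0.93 for Hdc. Each gene kept its sign without that library.

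**Figure D2:**
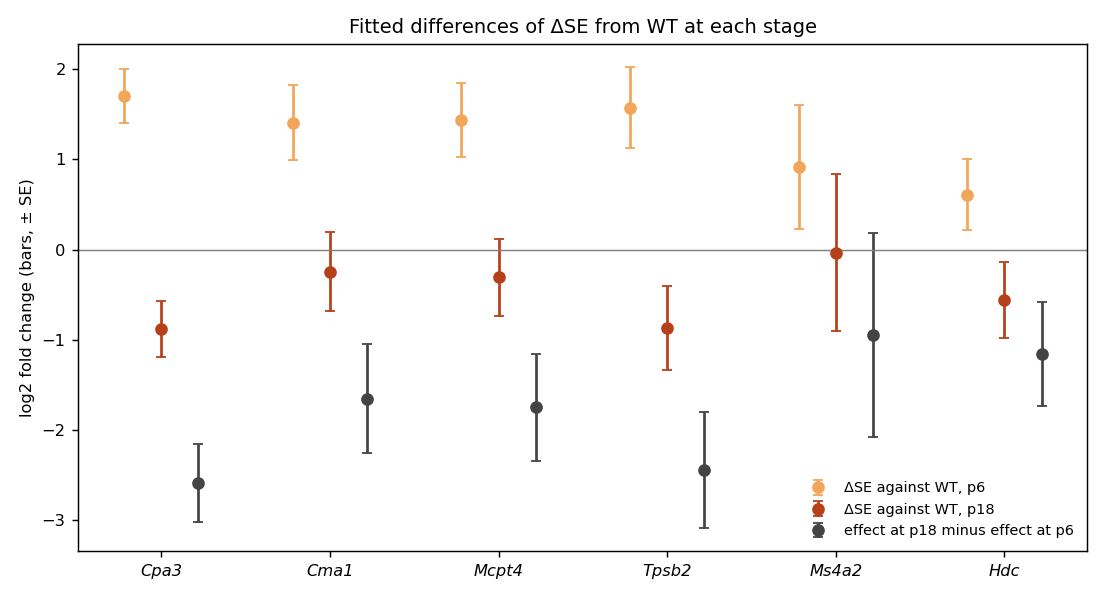
Log2 fold change of ΔSE against WT tissue (vertical axis, points with ± SE from the fit) for each gene (horizontal axis) at p6 and at p18, and the effect at p18 minus that at p6. Points at p6 lie above 0, from 0.61 to 1.70, points at p18 lie at or below 0, from -0.88 to -0.03, and the differences run from -2.58 to -0.95.

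Within ΔSE tissue all 6 genes were lower at p18 than at p6. The log2 fold changes were -2.43 (standard error 0.29) for Cpa3, -2.16 (0.43) for Tpsb2, -2.09 (0.39) for Mcpt4, -2.03 (0.73) for Ms4a2, -2.02 (0.40) for Cma1 and -1.15 (0.39) for Hdc. This fall was among the values the genes were chosen by. At the threshold used for all genes, which 35.6% of them passed and 18.3% as lower, the 6 genes were all called, and nothing is read from that count. Libraries of the 2 stages did not overlap for 5 of the 6 genes, and 19.9% of all genes were separated in that direction. Ms4a2 lost its call without ΔSE replicate 1, 2 or 4 at p6 or replicate 1, 3 or 4 at p18, with values of -2.08 to -1.58, and Hdc without replicate 3 or 4 at p6 or replicate 1, 3 or 4 at p18, with -1.20 to -0.89. With 1 factor of unwanted variation in the model no gene was called in this comparison, members included.

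Within WT tissue the same genes showed no common direction between p6 and p18. Log2 fold changes were 0.28 (standard error 0.48) for Tpsb2, 0.16 (0.32) for Cpa3, 0.01 (0.43) for Hdc, -0.34 (0.44) for Mcpt4, -0.36 (0.45) for Cma1 and -1.09 (0.83) for Ms4a2. None of the 6 was called, where 29.6% of all genes were. Libraries of the 2 stages overlapped for all 6 genes, while 20.9% of all genes were separated as higher and 19% as lower at p18. Without WT replicate 1 at p6 the 6 values were negative, from -1.09 for Ms4a2 to -0.15 for Tpsb2, so that 3 signs changed with that library. The comparisons of ΔSE tissue and of WT tissue by stage share no library, but both enter the difference described above.

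The single-enhancer lines were compared with each other, a contrast the choice of the genes did not use. Cpa3 was at 7.30, 4.72 and 3.55 normalized CPM in ΔCsn1s2bE tissue and at 5.17 and 4.70 in ΔCsn3PE tissue. Its log2 difference was 0.07 (95% interval -0.58 to 0.72). The chymase gene Mcpt4 differed by 0.54 (-0.17 to 1.25), Cma1 by -0.03 (-0.74 to 0.67) and the tryptase gene Tpsb2 by 0.02 (-0.67 to 0.71). Hdc differed by 0.55 (-0.42 to 1.52) and Ms4a2 by 0.64 (-0.74 to 2.03). Each adjusted p was 1 by edgeR's quasi-likelihood test, none of the 6 genes had an unadjusted p under 0.05, and DESeq2 also called none, where 0.181% of all genes were called, 0.0117% as higher and 0.169% as lower. Libraries of the 2 lines did not overlap for 1 of the 6 genes, Hdc, which was higher in ΔCsn1s2bE tissue, as were 11% of all genes, with 9.51% separated as lower. With 3 and 2 libraries the intervals still allow differences of the size given by their bounds. Beside WT tissue at p18, whose summed level of the 6 genes was 19.02 to 25.2 normalized CPM, ΔCsn1s2bE tissue had 11.8 to 22.1 and ΔCsn3PE tissue 12.3 to 15.1. Line and library set cannot be told apart in those values, and no test was made.

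Ordered by mean level, Cpa3 ran from ΔSE at p6 (21.96 ± 6.00, SD, n = 4) to WT at p18 (7.47 ± 1.65, n = 3), WT at p6 (6.72 ± 3.25, n = 3), ΔCsn1s2bE (5.19 ± 1.92, n = 3), ΔCsn3PE (4.93 ± 0.335, n = 2) and ΔSE at p18 (4.07 ± 0.866, n = 4). Only ΔSE at p6 was free of overlap with its neighbour in this order. The same held for Cma1, Mcpt4 and Tpsb2, whereas for Ms4a2 and Hdc every pair of neighbours overlapped. The groups were ordered by these same levels, and no such order was made for all genes, so that nothing is read from it.

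Members also varied together across the 14 WT and ΔSE libraries. Pearson's r of log2 levels was 0.94 for Cpa3 with Cma1, 0.944 for Cpa3 with Mcpt4 and 0.929 for Cpa3 with Tpsb2. For Cma1 with Tpsb2 r was 0.946, for Cma1 with Mcpt4 0.938 and for Mcpt4 with Tpsb2 0.887. It was lower where a scarce gene was involved, from 0.563 for Tpsb2 with Ms4a2 to 0.80 for Mcpt4 with Hdc. These points share libraries, stage and genotype, and the values describe them only.

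Other genes of mast cell biology were taken from lists of 42 genes, of which 35 were tested in WT and ΔSE tissue. In ΔSE tissue 14 of the 35 fell from p6 to p18 and 4 rose, against 18.3% and 17.3% of all genes. In WT tissue 6 fell and 1 rose, where 12.4% and 17.2% of all genes did. The median log2 fold change over the 35 was -0.87 in ΔSE tissue and -0.23 in WT tissue, beside -0.07 and -0.05 over all genes. Adjusted p-values for these genes are from edgeR's quasi-likelihood test over all genes. The lists were also chosen with earlier results of these data known, so that their counts and p-values give no independent support. With 1 factor of unwanted variation none of the 18 calls in ΔSE tissue remained. Of the 7 calls in WT tissue 6 were left without WT replicate 1 at p6, where Syk was lost (adjusted p = 0.056), and 1, Mitf, without WT replicates 2 and 3 at p18.

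The surface receptors included 2 that mark connective tissue mast cells. Mrgprb1, an orphan receptor close to the secretagogue receptor Mrgprb2, was at 3.83, 4.09, 5.53 and 7.63 normalized CPM in ΔSE tissue at p6 and at 1.31, 2.19, 1.36 and 1.21 at p18. It fell by 1.79 on the log2 scale (standard error 0.32, adjusted p = 0.00047, edgeR), and no library of p18 reached those of p6. In WT tissue Mrgprb1 was at 1.74, 2.69 and 3.10 at p6 and at 3.58, 1.82 and 2.77 at p18, and its fitted difference was 0.13 (adjusted p = 0.82), or -0.07 without WT replicate 1 at p6 and 0.54 without WT replicates 2 and 3 at p18. The difference of the deletion effect between stages was -1.91 for Mrgprb1 (standard error 0.48, adjusted p = 0.087), which missed the threshold, and DESeq2 called it. Mrgprb2 fell by 2.36 in ΔSE tissue (standard error 0.76, adjusted p = 0.024) on few reads, 16 to 32 at p6 and 2 to 6 at p18, and this call was lost without ΔSE replicate 4 at p6 or replicate 1, 3 or 4 at p18 (adjusted p of 0.056 to 0.070). Of the other 4 receptors Enpp3 rose by 1.36 (adjusted p = 0.0002), with a level of 15.3 to 79.8 normalized CPM over all libraries. Cd200r3, which is also in the basophil list, Adora3 and Mrgpra4 were not called.

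Among genes of the IgE receptor and its signalling, Fcer1a, the ligand-binding α chain, differed by -1.61 between stages in ΔSE tissue (adjusted p = 0.054), just outside the threshold. Its reads were few, 6 to 28 at p6 and 2 to 6 at p18, and DESeq2 called it. Fcer1g, the γ chain shared with macrophage receptors, fell by 0.83 (adjusted p = 0.0092), and the kinases Btk and Syk fell by 1.27 (adjusted p = 0.002) and 0.87 (adjusted p = 0.00036). Lat2, an adaptor, fell by 0.80 (adjusted p = 0.027), a call lost without ΔSE replicate 1 or 4 at p6 or replicate 1 or 2 at p18 (adjusted p of 0.060 to 0.099). Lyn, a Src family kinase found in many cells, rose by 0.65 (adjusted p = 0.001), with 0.07 under scaling by library totals. Of 7 genes in the list 4 fell and 1 rose in ΔSE tissue, where 18.3% and 17.3% of all genes did. In WT tissue 1 of the 7, Syk, fell, where 12.4% of all genes did.

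The transcription factors Gata2 and Mitf fell in both genotypes. Gata2 had log2 fold changes of -1.24 in ΔSE tissue (adjusted p = 0.012) and -1.36 in WT tissue (adjusted p = 0.016), and Mitf had -0.71 (adjusted p = 0.0047) and -0.66 (adjusted p = 0.02). Il1rl1, the receptor of IL-33, fell by 1.25 in ΔSE tissue (adjusted p = 0.00078), with -0.47 in WT tissue (adjusted p = 0.21). Kit, the receptor of stem cell factor, which luminal progenitors of the gland also express, rose by 0.46 in ΔSE tissue (adjusted p = 0.034), and with scaling by library totals its value was -0.12. Its call held in 8 of 15 alternatives and was lost without ΔSE replicate 4 at p6 or any of the 4 ΔSE libraries at p18. Its level was 77.8 to 185 normalized CPM over all libraries.

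Granule and mediator genes were mixed. Ltc4s, leukotriene C4 synthase, fell by 2.24 in ΔSE tissue (adjusted p = 0.00088) and by 1.38 in WT tissue (adjusted p = 0.046). Tph1, which starts serotonin synthesis and is also known from the mammary epithelium, fell by 1.56 (adjusted p = 0.0022) and 1.92 (adjusted p = 0.0015). Ndst2, the heparin-modifying enzyme of mast cell granules, fell by 0.40 in ΔSE tissue (adjusted p = 0.009), and Ptgs1 fell by 0.44 (adjusted p = 0.047), a call that was lost in 11 of 15 alternatives, among them each of the 8 ΔSE libraries left out. Srgn, the core proteoglycan of granules, had -0.10 in ΔSE tissue (adjusted p = 0.69). Gzmb, a granzyme of lymphocytes as well, rose by 1.77 (adjusted p = 0.0079). Of the related proteases Mcpt1 and Mcpt2 had no reads and Mcpt9, Cma2 and Ctsg no more than 2 in a library, so that these were not tested, whereas Tpsab1 had 0 to 8 reads per library.

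For signals to mast cells, Kitl, stem cell factor, was not called, with -0.19 in ΔSE tissue (adjusted p = 0.27) and -0.15 in WT tissue (adjusted p = 0.48). Il33, an alarmin of stromal and endothelial cells, fell by 2.40 in ΔSE tissue (standard error 0.43, adjusted p = 0.00047) and had -0.08 in WT tissue (adjusted p = 0.91). Among WT libraries at p18 replicate 1 held Il33 at 1.52 normalized CPM and the other two at 3.77 and 4.47, and without those 2 its WT value was -1.17 (adjusted p = 0.29). Its difference between stages in the deletion effect was -2.31 (standard error 0.62, adjusted p = 0.10) and was called by DESeq2, and without the same libraries it was -1.23 (adjusted p = 0.55). Il3 had no reads, and Il9 had at most 1 read in a library.

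Between genotypes none of the 35 genes was called by edgeR at either stage or for the difference between stages. Over all genes edgeR called 1.03% at p6, 0.314% at p18 and 0.151% for the difference. With shares so low, the absence of calls is not read as a result about the lists. At p6 28 were positive and 7 negative, with 10 at an unadjusted p under 0.05 and 2 called by DESeq2, Alox5ap and Mrgprb1. Over all genes 51% were positive at p6, 17% had such a p and DESeq2 called 5.09%. At p18 9 were positive and 26 negative, with 5 and 1, the latter Il33, where the shares over all genes were 44.4%, 12.3% and 2.78%. For the difference between stages 8 were positive and 27 negative, with 6 and 2, Il33 and Mrgprb1, where the shares over all genes were 45.6%, 16.6% and 3.27%.

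**Figure D3:**
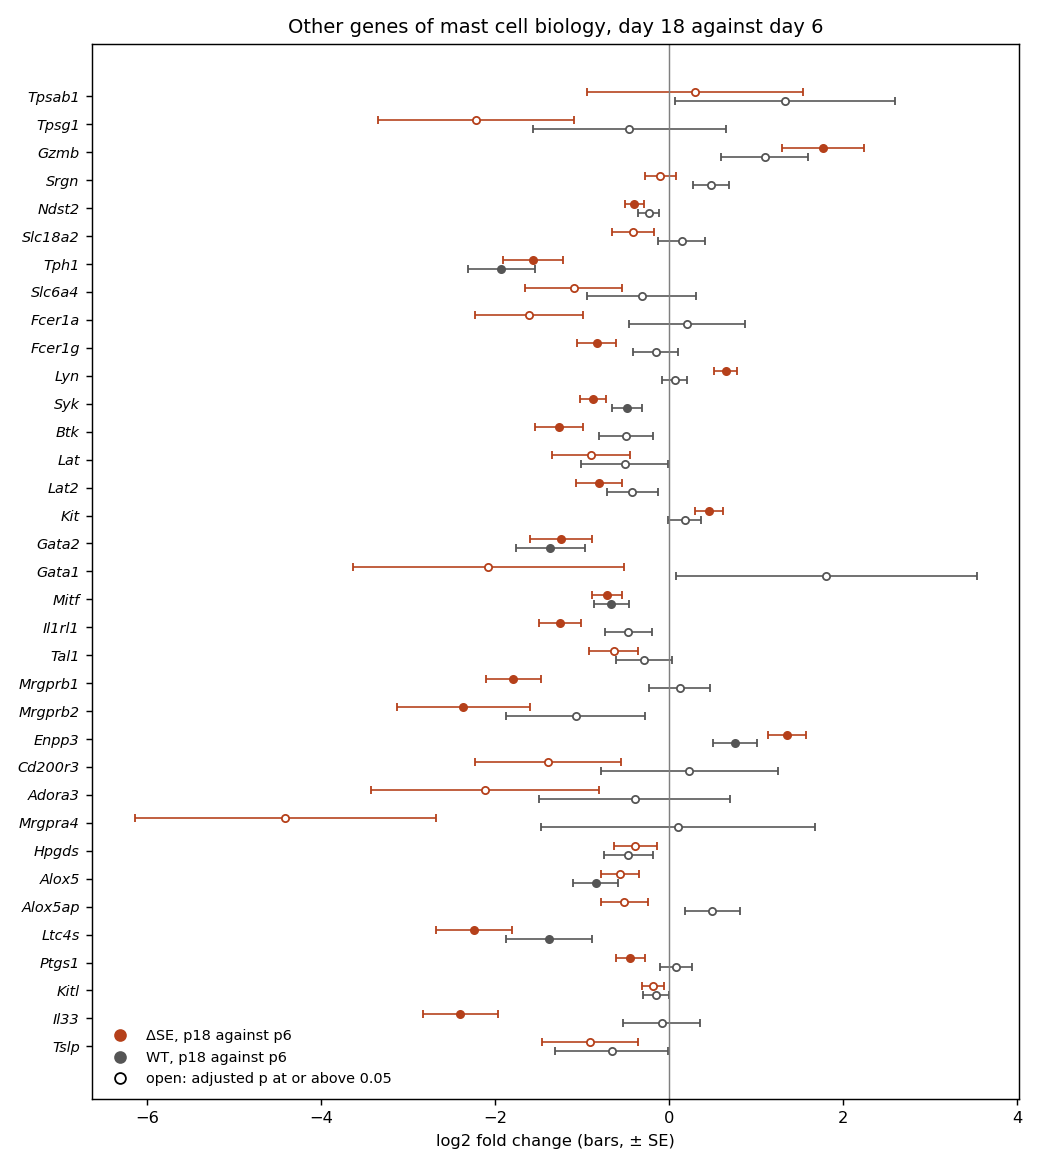
Log2 fold change from p6 to p18 (horizontal axis, points with ± SE) of the 35 tested genes of mast cell biology outside the 6 (vertical axis), in ΔSE tissue and in WT tissue, with filled points for an adjusted p under 0.05. Filled points to the left of 0 number 14 in ΔSE tissue and 6 in WT tissue, and filled points to the right number 4 and 1.

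Markers of some other cell types moved with the mast cell genes, and those of others did not. The summed level of the 6 genes was 45.0 to 97.8 normalized CPM in ΔSE tissue at p6, 8.46 to 31.7 in WT tissue at p6, 19.02 to 25.2 in WT tissue at p18 and 12.7 to 20.6 in ΔSE tissue at p18. Over the same groups the 6 genes of fibroblasts and connective tissue, led by the collagen gene Col3a1, summed to 9978 to 12918, 1068 to 9516, 4940 to 6628 and 3369 to 6262. In ΔSE tissue, where 18.3% of all genes fell and 17.3% rose, 5 of these 6 fell from p6 to p18, with a median log2 fold change of -1.23 over the list. The 8 macrophage genes summed to 381 to 508, 154 to 433, 241 to 314 and 253 to 326, with 3 of 8 falling. Adipocyte genes summed to 1964 to 3685 in ΔSE tissue at p6 and 1294 to 1783 at p18, with 4 of 7 falling, while 6 of 6 luminal epithelial genes rose, from 365 to 688 to 1285 to 1537. WT replicate 1 at p6 was lowest for connective tissue, macrophage and mast cell genes alike. No gene of the connective tissue or macrophage lists was at 0 in a library, and 8 of 8 skeletal muscle genes fell in ΔSE tissue. The part of these tissues in the levels of the 6 genes was not tested.

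**Figure D4:**
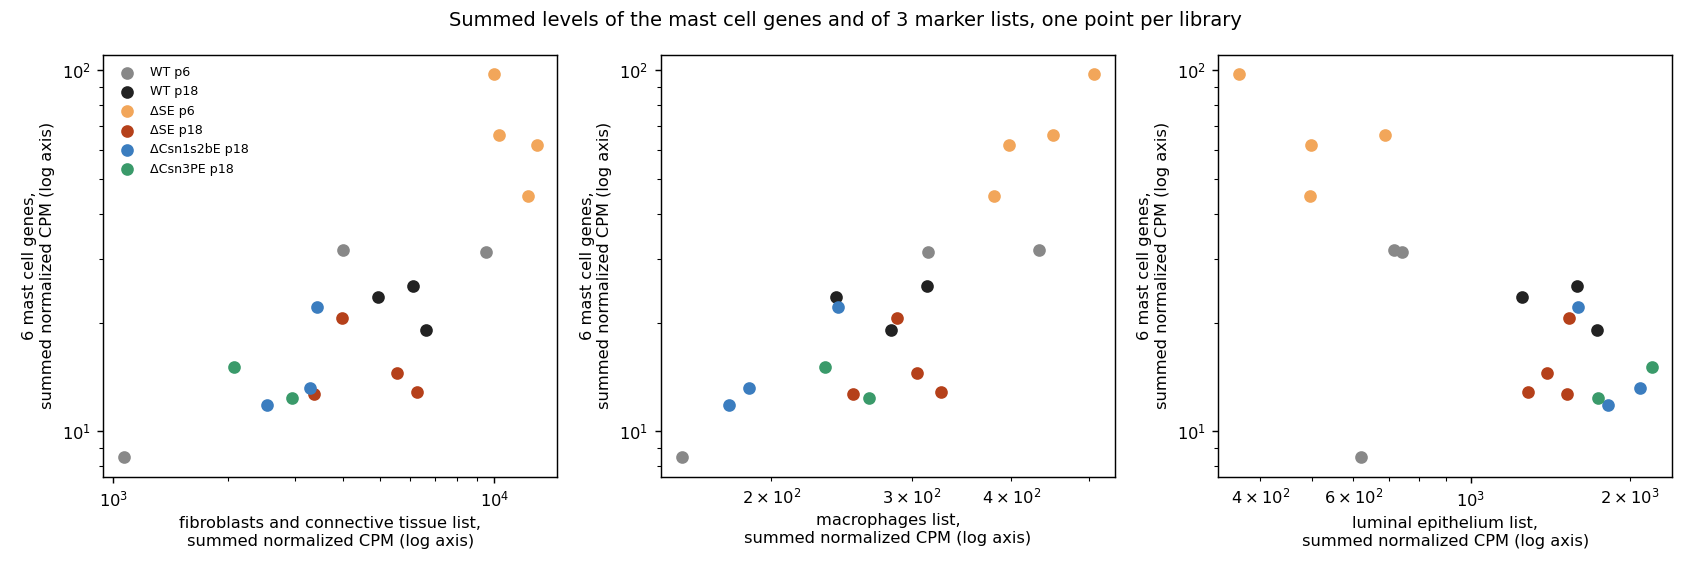
Summed normalized CPM of the 6 mast cell genes (vertical axis, log scale) against that of the connective tissue, macrophage and luminal epithelium lists (horizontal axes, log scale), with 1 point per library. ΔSE libraries at p6 lie at 45.0 to 97.8 on the vertical axis, where connective tissue and macrophage sums are high and luminal sums low.

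Taken per 1000 normalized CPM of the connective tissue list, the 6 genes stood at 3.68 to 9.80 in ΔSE tissue at p6, 2.06 to 5.18 in ΔSE tissue at p18, 3.30 to 7.92 in WT tissue at p6 and 2.87 to 4.75 in WT tissue at p18. The 4 groups overlapped on this scale. Per 1000 of the macrophage list they stood at 118 to 192, 39.5 to 71.8, 54.8 to 99.9 and 67.4 to 97.6, and ΔSE tissue at p6 stayed above the other groups. Per 1000 of the endothelium list they stood at 139 to 292, 40.9 to 73.0, 26.4 to 152 and 60.2 to 96.6, and ΔSE tissue at p6 overlapped with 1 WT library of that stage. Whether ΔSE tissue at p6 stands apart thus differed with the denominator.

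The genes whose pattern was most like that of the 6 were taken over the 14 WT and ΔSE libraries, by Pearson's r of log2 levels with the mean standardized level of the 6. Among 13077 genes ranked, Sfrp2 (r = 0.945), Anxa2 (0.944), Crabp1 (0.94), Eml1 (0.94), Lsp1 (0.937), Ddr2 (0.935), Fam217b (0.932), Cmah (0.93), Osr1 (0.929) and Calhm2 (0.929) came highest. Sfrp2, a secreted Wnt inhibitor of fibroblasts, averaged 64.2 normalized CPM in ΔSE tissue at p6, 25.3 in WT tissue at p6, 14.1 in WT tissue at p18 and 11.3 in ΔSE tissue at p18. Ddr2, a collagen receptor, averaged 134, 82.5, 61.7 and 57.5. Of the mast cell lists Mrgprb1 ranked 13 (r = 0.927) and Il1rl1 104 (0.877). Kit (-0.468), Gzmb (-0.538), Lyn (-0.774) and Enpp3 (-0.825) had a negative r. The summed level of the connective tissue list had an r of 0.746 with the mean of the 6 and that of macrophages 0.784, adipocytes 0.758, basophils 0.734 and luminal epithelium -0.712, over the same libraries. The remaining marker lists ran from -0.559 for nerve and Schwann cells to 0.554 for eosinophils. Among these, endothelium had 0.369 and T and NK cells -0.133. These points share libraries, stage and genotype.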

How the data were processed

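Total RNA-seq of mammary tissue was analysed in 19 libraries, grouped by the genotype and stage labels. The authors trimmed paired-end reads with Trimmomatic, aligned them to mm10 with STAR and counted reads per gene with HTSeq (annotation and strand setting are not given in the sources used here), and the deposited values are whole-number counts per gene, not normalized. Later steps of the authors with RUVSeq and DESeq2 are not in the counts. The 5 files of the single-enhancer lines also held HTSeq summary entries, which were left out.

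For genes whose reads summed to 10 or more, edgeR's quasi-likelihood test (glmQLFTest after TMM scaling; edgeR 4.0.16, R 4.3.3) was applied, and a gene was called at an adjusted p under 0.05 (Benjamini-Hochberg, over all genes tested). The 17844 genes of the WT and ΔSE set were fitted over its 14 libraries. For the single-enhancer lines 17125 genes were fitted over 8 libraries, with WT at p18 included. The standard error is the fold change divided by the root of F, and 95% intervals use the degrees of freedom of the fit. Replicates are independent biological samples by the study's account. The steps were tested on simulated data. A count of 0 allows up to 3 counts, and such limits cover counting error only.

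The 6 genes, the other mast cell lists and the marker lists were chosen with earlier results of these data known. The genes named are the 6, all genes of the mast cell lists that show a result, the 10 genes most like the 6 (mean of at least 1 normalized CPM, log2 of level plus 0.5, predicted genes left out) and a few examples of marker lists. Alternatives were DESeq2 (version 1.42.0), other scalings and filters, 1 factor of unwanted variation (taken from genes outside the 5000 with the strongest group differences), the replicate number as a block, fits of the 2 groups compared, and each library left out. Leaving out the 2 WT libraries with muscle transcripts was chosen after seeing the data.

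Levels per kilobase use the union of GENCODE exons (vM21), which may differ from the annotation the authors counted on. Reads of genes with near copies may have been split or dropped in counting.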

Additional observations from a re-analysis of the deposited data

Results flagged for a closer look

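For Cpa3 the effect of the super-enhancer deletion at p18 minus that at p6 was -2.58 on the log2 scale. It passed the threshold used for all genes in edgeR, as 1 of the 6, where 0.151% of all genes did. In DESeq2 it passed together with Tpsb2, where 3.27% of all genes did. Cpa3 failed the threshold in 10 of 14 edgeR fits with 1 library left out. The genes were chosen with this comparison in view, so that the value is a description and no test.

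Each of 41 genes was examined in both of the 2 ΔSE groups of 4 libraries, except Mrgpra4 at p18, where it had no reads. In 11 genes 1 library had a gap to the nearest library above Dixon's critical share of the group's range. Chance gives about 1 in 20 for each gene and group if values are normal, a rate that does not hold for genes with few reads. The share of such gaps over all genes was not taken, and nothing is read from the count. None of the 11 was a member. At p18 Mrgprb1 was at 2.19 normalized CPM and Mrgprb2 at 0.548 in replicate 2, against 1.21 to 1.36 and 0.134 to 0.188 in the others. Mitf was at 8.03 in the same library, against 10.4 to 10.7. Ndst2 was at 15.8 in replicate 1, against 18.3 to 18.7, and Tph1 at 10.7 in replicate 4, against 6.06 to 6.85. Gata1 was at 0.0938 in replicate 1 and Adora3 at 0.136 in replicate 3, on 1 and 2 reads, where the other libraries had no reads. At p6 Il33 was at 8.85 in replicate 2, against 3.78 to 4.51, and Ltc4s at 7.33 in replicate 4, against 4.03 to 4.24. Btk was at 4.06 in replicate 1, against 3.46 to 3.56, and Mrgpra4 at 0 in that library, against 0.198 to 0.237.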

How the results depend on the processing

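The median log2 fold change of the 6 genes kept its sign under each alternative in the comparisons of ΔSE with WT tissue, in their difference and in ΔSE tissue by stage. It moved by over 1.5 times at p18 without the 2 WT libraries with muscle transcripts, from -0.43 to -0.77. Between the single-enhancer lines it went from 0.31 to 0.07 under filterByExpr. Ms4a2 did not pass that filter there, and the median was over the remaining members. In WT tissue by stage it was -0.16, with -0.60 by library totals, 0.04 with 1 factor of unwanted variation and 0.01 without the 2 libraries. Single libraries that moved it by over 1.5 times were ΔSE replicate 2 at p18 (-0.82), and, in WT tissue by stage, WT replicates 1 (-0.48), 2 (0.07) and 3 (-0.02) at p6, and, between the lines, ΔCsn3PE replicate 1 (0.50) and ΔCsn1s2bE replicates 1 (-0.07) and 3 (0.46). Leaving out single libraries gave medians of -2.06 to -1.28 for the difference between stages, 1.00 to 1.70 for ΔSE against WT tissue at p6, -0.82 to -0.33 at p18, -2.31 to -1.83 for ΔSE tissue and -0.48 to 0.07 for WT tissue by stage, and -0.07 to 0.50 between the single-enhancer lines. The counts of calls were less stable. For the difference between stages 1 member and 27 genes were called, with 2 and 584 by DESeq2, 0 and 0 by library totals, 0 and 0 with 1 factor of unwanted variation, 0 and 2 without the 2 WT libraries with muscle transcripts, and 94 genes without a filter. Single libraries left out gave 0 to 2 members and 0 to 1036 genes, and Cpa3 lost its call in 10 of 14. Library totals left 2243 genes at an unadjusted p under 0.05, and the factor 1439. For ΔSE against WT tissue at p18 56 genes were called, with 496 by DESeq2, 13 by library totals, 102 without a filter, 824 with the 2 groups alone (and 1 member, Cpa3), 22 without the 2 WT libraries, and 6 to 104 (0 to 0 members) with single libraries left out. At p6 1 member and 183 genes were called, with 4 and 908 by DESeq2, 37 genes by library totals, 277 without a filter, 0 and 9 with the factor, 0 and 0 with the 2 groups alone (2157 genes at an unadjusted p under 0.05), and 0 to 4 members and 8 to 1767 genes with single libraries left out. Here Cpa3 lost its call without WT replicate 1 and without ΔSE replicate 3 or 4. For WT tissue by stage 5279 genes were called, with 117 with the factor, 2010 without the 2 WT libraries, and 3867 to 5118 with single libraries left out (0 to 0 members). For ΔSE tissue by stage 6 members and 6348 genes were called, with 0 and 0 with the factor (627 genes at an unadjusted p under 0.05), and 4 to 6 members and 5195 to 6149 genes with single libraries left out. For the single-enhancer lines 31 genes were called, with 96 by DESeq2, 58 without a filter, and 19 to 32 with single libraries left out (0 to 0 members). The cause of these changes was not tested. Library totals moved the median of all genes by -0.22 for the difference between stages, -0.06 at p18, 0.15 at p6, -0.37 in WT and -0.59 in ΔSE tissue by stage, and there Kit had -0.12 in ΔSE tissue by stage. Replicate numbers did not pair the samples, with correlations of deviations from -0.173 to 0.193 over 19 pairs and -0.431 to 0.265 over 7. With the replicate number as a block ΔSE against WT tissue at p6 gave 26 genes and 0 members. Depth limits Ms4a2 and Hdc most.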
